A study of Mus musculus with 10 samples.

Results

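Heterotrimeric G proteins and their regulators were followed in the midbrain of arthritic and control mice. The members were chosen by gene symbol alone, among probes with a single symbol, as the Gna, Gnb, Gng, Rgs, Adcy, Grk, Adrbk, Arrb, Plcb and numbered Pde genes. This gave 62 probes for 58 genes, of 9066 single-symbol probes for 8726 genes and of 10080 probes on the array. They comprise 13 probes for alpha, 4 for beta and 9 for gamma subunits, 14 for RGS proteins, 4 for adenylyl cyclases, 2 for receptor kinases, 2 for phospholipases C-beta and 14 for phosphodiesterases. No probe bore an Adrbk or Arrb symbol. All 62 symbols equal the RefSeq symbol of the same gene identifier.

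These proteins carry signals from receptors in the cell membrane to enzymes and channels inside the cell. An alpha subunit, encoded by a Gna gene, binds a guanine nucleotide, and a beta and a gamma subunit, encoded by Gnb and Gng genes, form a pair that separates from it on activation. Alpha subunits raise or lower cyclic AMP through adenylyl cyclases (Adcy) or open the phospholipase C pathway (Plcb). RGS proteins end the signal by speeding GTP hydrolysis, receptor kinases (Grk) switch receptors off, and phosphodiesterases (Pde) break down cyclic nucleotides. In the midbrain this machinery serves receptors for dopamine, opioids, serotonin and many peptides.

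RNA was taken from the midbrain of male DBA/1 mice, an inbred strain that is prone to arthritis after immunisation with type II collagen, and was measured on 10 arrays that each held RNA of both groups in different dyes. The arthritic group, 8 weeks old, received 100 ul of collagen with 100 ul of complete Freund's adjuvant in the skin, and the control group of the same age and sex received 200 ul of the adjuvant alone. Mice of both groups also had LPS, a bacterial endotoxin, on day 24 and were killed at a time labelled 31, so that the controls carry adjuvant and endotoxin too. The arrays form 5 dye-swap pairs under 3 replicate numbers, with 2 pairs each for replicates 1 and 2 and 1 pair for replicate 3. How many mice stand behind an RNA is not stated in the sources used here, and if a number does not mark separate animals, the p-values measure only the spread between these preparations.

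Values below are log2 ratios of collagen over control, where 0 means equal signal and a negative value means less signal in the arthritic group. Their direction is likely rather than stated, since the files name the channels A and B and not the dyes, and A was read as Cy3. With A as Cy5 every sign would turn. In whole midbrain RNA, fewer cells of a type and less RNA per cell cannot be told apart. Between 4496 and 8425 probes per array gave a ratio, and 4139 had one in all 3 replicates and were tested. Of the midbrain neuron markers with a probe, 7 of 8 were tested, among them Th, the enzyme that starts dopamine synthesis, with a ratio on 7 arrays, and Pitx3, a transcription factor of dopamine neurons, with one on all 10. Drd2, the eighth, had a value in 2 replicates. Being tested was not particular to midbrain markers, since 5 of 7 cerebellar and 2 of 5 forebrain markers with a probe were tested too.

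The first question was which of the G protein genes the arrays measured at all. A value in all 3 replicates was obtained for 33 member probes of 33 genes (53.2% of the 62 probes, against 41.1% of all probes on the array). Another 15 probes had a value in 2 replicates, 4 in 1 and 10 in none. Of the 620 combinations of a member probe and an array, 391 gave a ratio, 205 had signal in channel A alone, 1 in channel B alone and 23 in neither. The excess of channel A was present in both dye orientations, with 13 to 24 members per array, so a missing ratio was not read as absence of the RNA in either group.

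The best covered members came from 5 of the families. Gna13 and Gnai3 among the alpha subunits, Gnb1 among the beta subunits, and Gng4, Gng5, Gng8 and Gng10 among the gamma subunits gave a ratio on all 10 arrays. So did the RGS genes Rgs11 and Rgs17 and the phosphodiesterase genes Pde1a, Pde1b and Pde4b. At the other end, Gnat2, the alpha subunit of cone photoreceptors, gave none on any array, and Gnat1, its rod counterpart, gave 1. Of the genes listed as retina markers, 7 have a probe and 0 were tested. These include the photoreceptor phosphodiesterase genes Pde6a, Pde6b and Pde6g with a ratio on 2, 3 and 4 arrays, and Gngt1, the rod gamma subunit, had one on 2. Coverage of photoreceptor genes was uneven, however. On the same list Rcvrn had a ratio on 2 arrays and Sag on 6. Among further photoreceptor members, Gnb3, Gngt2 and Grk1 had one on 5, 6 and 8 arrays. Replicate values were had for Pde6g in replicates 1 and 2 (0.02 and -0.08) and for Pde6b in replicate 2 (-0.16). Rgs9, an RGS protein abundant in the striatum, had a ratio on 2 arrays, and Rgs18, known from platelets, on 1. A second probe for Rgs3 had a ratio on 2 arrays and one for Pde1a on none. Both phospholipase and both receptor kinase genes also lacked a value in all replicates. Plcb1 had values in 2 replicates (-0.22 and 0.07) and Plcb3 in none, while Grk1, a receptor kinase of photoreceptors, had 2 (-0.01 and 0.03) and Grk4 had 1 (-0.30).

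**Figure D1:**
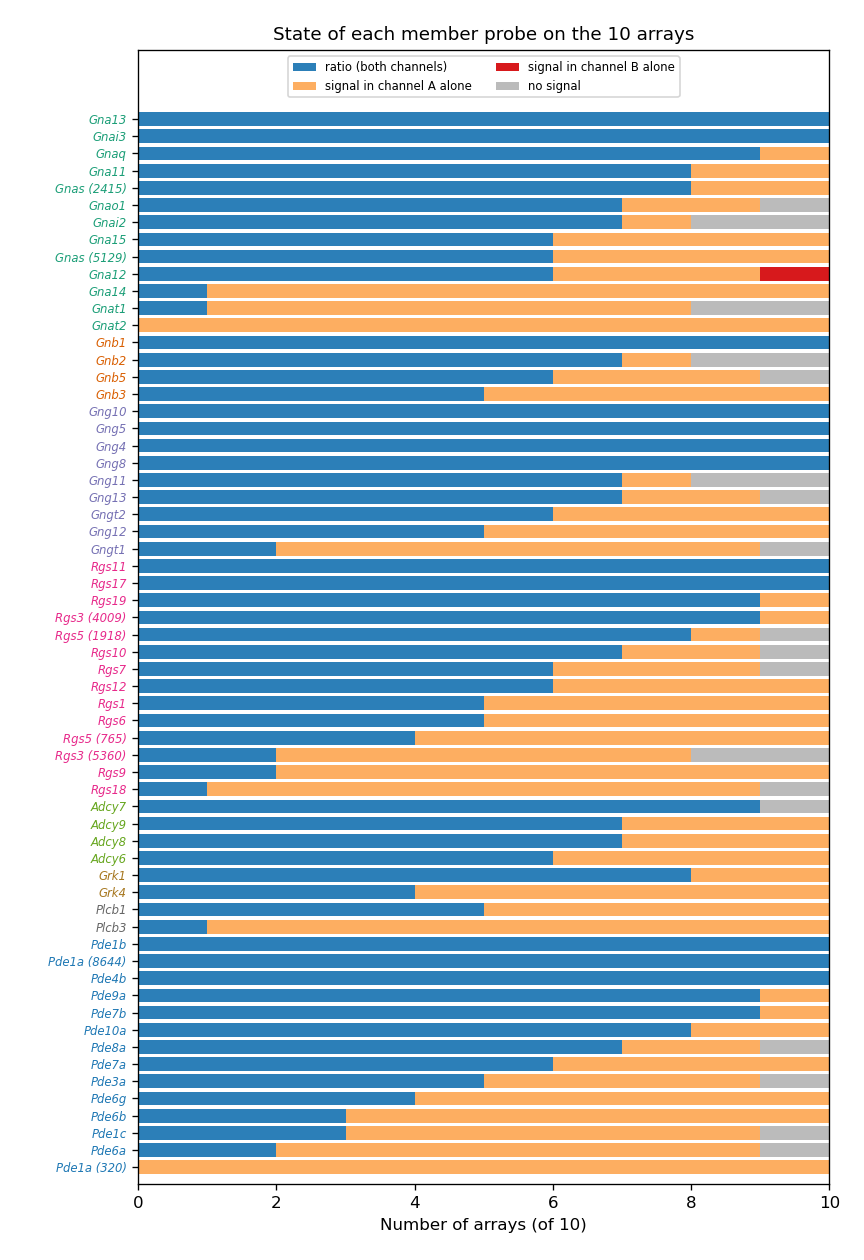
Horizontal bars give, for each of the 62 member probes, the number of the 10 arrays with a ratio, with signal in channel A alone, in channel B alone, or with no signal; label colours mark the gene families and probe numbers separate probes of the same gene. 12 probes have a ratio on all 10 arrays, and Gnat2 and the second Pde1a probe have none on any.

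The main comparison asked whether any of these genes differed between arthritic and control midbrain. None of the 33 tested members passed. Gng5, a widely expressed gamma subunit, had the lowest ratio, 0.757 times control on the linear scale (95% interval 0.63 to 0.909). Pde7b, a phosphodiesterase specific for cyclic AMP, stood at 0.81 times control, and Rgs12, an RGS protein with several further binding domains, at 0.833 times. On the other side Pde8a, another cyclic AMP phosphodiesterase, stood at 1.18 times and Adcy8, a calcium-stimulated adenylyl cyclase, at 1.19 times.

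Limma called 0 of the 33 members at an adjusted p under 0.05, and 0% of the 4139 probes as a whole. The smallest adjusted p among the members was 0.827, which is also the smallest of all probes. At an unadjusted p under 0.05 there were 3 lower members, Gng5, Pde7b and Rgs12, beside 2.73% of all probes, and 1 higher member, Pde8a, beside 1.21%. For 33 of 33 members the 95% interval stayed inside a 2-fold change, beside 99.3% of all probes. For 31 members it stayed inside 1.5-fold, beside 93.2% of all probes. Gng5 and Adcy8 were the exceptions to the narrower bound. No member had a mean beyond 0.5 in either direction with replicates of a single sign (0 of 33), beside 0.314% of all probes.

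**Figure D2:**
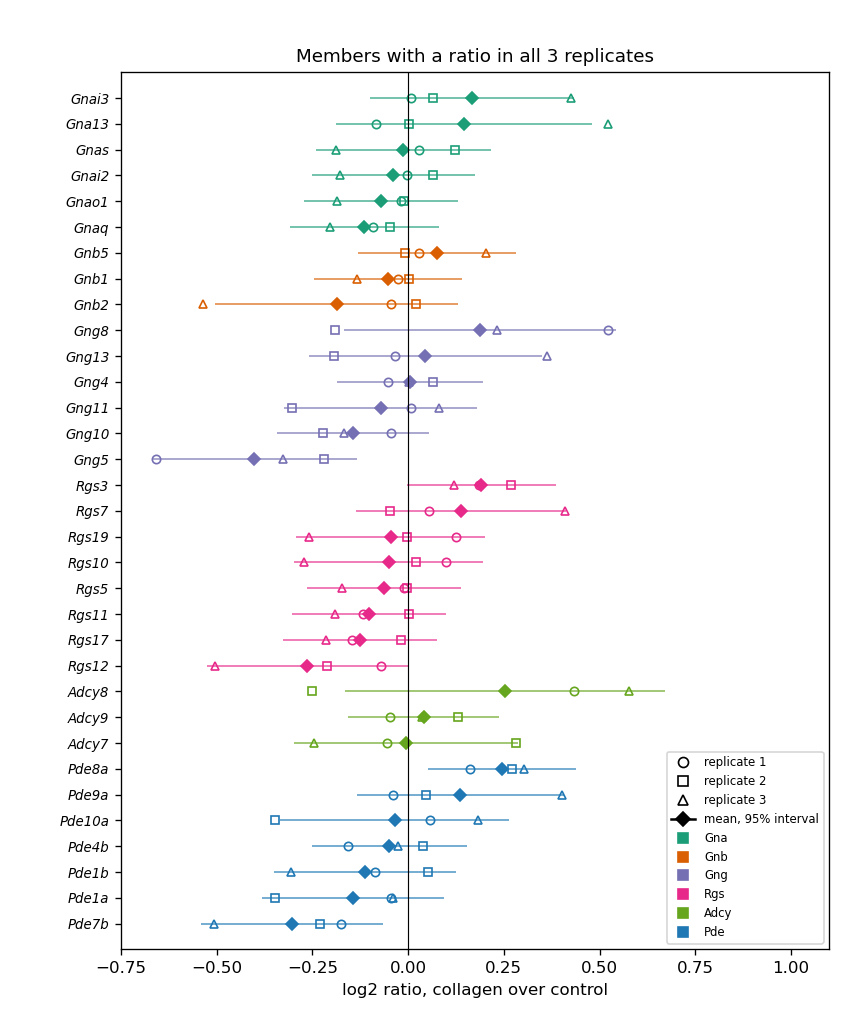
Open symbols show the log2 ratio of collagen over control in each replicate for the 33 members with a value in all 3, diamonds the mean and lines its 95% interval from limma; colours mark the gene families. The means lie between -0.40 and 0.25, and the intervals of Gng5, Pde7b, Rgs12 and Pde8a do not include 0.

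The members leaned slightly lower, as the array did. Of the 33, 21 had a mean under 0 and 12 over 0, and their median was -0.05, beside -0.02 and 59.2% lower over all tested probes. The sign was the same in all 3 replicates for 9 lower members (27.3%, beside 20.8% of all probes) and 3 higher ones (9.09%, beside 8.92%). The 9 lower ones were Gng5, Gng10, Gnaq, Gnao1, Rgs5, Rgs12, Rgs17, Pde1a and Pde7b, and the 3 higher ones were Gnai3, Rgs3 and Pde8a. The medians of the members in replicates 1, 2 and 3 were -0.03, -0.00 and -0.13, where those of all probes were -0.04, -0.02 and -0.02.

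Alpha subunits differed little between the groups, with means from -0.11 to 0.17 for 6 tested genes, 4 of them under 0. Gnai3, which inhibits adenylyl cyclase, stood at 0.01, 0.06 and 0.43 in replicates 1, 2 and 3, a mean of 0.17 ± 0.23 (SD, n = 3). Replicate 3 supplied most of this mean, and without it the value was 0.04. Gnaq, which activates phospholipase C-beta, stood at -0.09, -0.05 and -0.20 (mean -0.11 ± 0.08), below 0 in every replicate, and without replicate 3 the mean was -0.07. By array, all 4 with collagen RNA in Cy5 were below 0, between -0.44 and -0.31, and 3 of the 5 with it in Cy3 were above. Gnao1, the most abundant alpha subunit of brain, lay lower in all replicates as well, with -0.02, -0.01 and -0.19. Gna13, an alpha subunit that acts on the cytoskeleton, was spread most widely, from -0.08 in replicate 1 to 0.52 in replicate 3. Gnai2 (mean -0.04) and Gnas, the stimulator of adenylyl cyclase (mean -0.01), lay close to 0. None of the 6 had an unadjusted p under 0.05.

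A second Gnas probe and the alpha subunits measured in 2 replicates gave no steadier picture. The untested Gnas probe stood at -0.35 in replicate 1 and 0.11 in replicate 2, where the tested probe had 0.03 and 0.12. Gna11, a close relative of Gnaq, stood at 0.27 and 0.01 in replicates 1 and 2, and its neighbour on the chromosome Gna15 at 0.21 and -0.15. Gna12 stood at 0.15 in replicate 1 and -0.62 in replicate 3. Signs differed between the replicates for Gna12, Gna15 and the untested Gnas probe. Gna14, which lies next to Gnaq, gave no replicate value.

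Among beta subunits, the 3 tested genes had means of -0.19, -0.05 and 0.07. Gnb2 stood at -0.05, 0.02 and -0.54 in the 3 replicates, a mean of -0.19 ± 0.30, and this rested on replicate 3: without it the mean was -0.01. Gnb1, measured on all 10 arrays at a median of 13.6 times its local background, stayed between -0.13 and 0.00. Gnb5, the beta subunit that pairs with RGS proteins in place of a gamma subunit, stood at 0.03, -0.01 and 0.20. Of its RGS partners, the tested Rgs7 and Rgs11 had means of 0.14 and -0.10, on different sides of 0. Neither they nor Gnb5 had an unadjusted limma p under 0.05. Gnb3, known from cone photoreceptors, had a value in replicate 1 alone (-0.03).

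Gamma subunits held the member with the lowest p. Gng5 stood at -0.66, -0.22 and -0.33, all below 0, with a mean of -0.40 ± 0.23 (SD, n = 3, limma unadjusted p = 0.0103, adjusted p = 0.827). Its p ranked 11 among the 4139 probes. On the 10 single arrays it ranged from -2.03 to 0.14 and was below 0 on 8. All 5 arrays with collagen RNA in Cy3 were below 0, between -0.60 and -0.22, whereas 4 of the 5 arrays with collagen RNA in Cy5 lay between -0.12 and 0.14. The remaining one, from the first pair of replicate 1, gave -2.03, at a weaker-channel signal of 0.83 times the local background. Without that pair the mean was -0.21, and with print-tip loess or median centring it was -0.09 and -0.07.

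The other gamma subunits did not share this low value. Gng10 stood at -0.04, -0.22 and -0.17 (mean -0.14 ± 0.09) and was below 0 on 8 of 10 arrays. Gng8, known from olfactory and vomeronasal neurons, stood at 0.52, -0.19 and 0.23, and Gng13, first known from taste cells, at -0.03, -0.19 and 0.36. Both had replicates on either side of 0. Gng11 had a mean of -0.07 and Gng4, a gamma subunit of brain, of 0.01. Gng12 stood at -0.13 and -0.12 in replicates 2 and 3 and Gngt2, of cone photoreceptors, at -0.32 and 0.05 in replicates 1 and 2. Over the 6 tested gamma genes, 3 means lay on each side of 0.

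RGS genes had a mean below 0 in 6 of 8 tested cases (75%, beside 59.2% of all probes), with a median of -0.06 and 0 called. Rgs12 stood at -0.07, -0.21 and -0.51, a mean of -0.26 ± 0.22 (limma unadjusted p = 0.0482, adjusted p = 0.827), and without replicate 3 the mean was -0.14. Only 6 arrays measured it, and 4 of these lay below 0. All 3 with collagen RNA in Cy5 were below 0, whereas 2 of the 3 with it in Cy3 were above and the other stood at -0.78. Rgs3 stood at 0.18, 0.27 and 0.12, a mean of 0.19 ± 0.08 (limma unadjusted p = 0.0508, adjusted p = 0.827), with 7 of 9 arrays above 0. In replicate 2 one array stood at 0.92, where the weaker channel was 0.168 times its local background, and the other 3 lay between -0.16 and 0.19. The mean was 0.08 with the last scan alone or without background correction, and 0.50 with median centring. The second Rgs3 probe was below 0 on both of its arrays, at -0.81 and -0.50. Rgs17, an inhibitor of signals through Gi and Gz, stood at -0.15, -0.02 and -0.21, a mean of -0.13 ± 0.10. All 5 of its arrays with collagen RNA in Cy3 were below 0 and 4 of the 5 with it in Cy5 above.

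The other RGS members had unadjusted p-values over 0.05 or were not tested. Rgs7 stood at 0.05, -0.05 and 0.41. Rgs10, abundant in microglia, stood at 0.10, 0.02 and -0.27, and Rgs19 at 0.12, -0.00 and -0.26, so that in both genes replicate 3 alone was clearly below 0. Rgs5, a marker of pericytes, had -0.01, -0.00 and -0.17 from its tested probe, and its untested probe gave -0.28 and -0.23 in replicates 1 and 2. Both Rgs5 probes were below 0 in each replicate where they had a value, at sizes that differed. On single arrays the tested probe was below 0 on 4 of 8 and the untested one on 4 of 4. Rgs6 stood at 0.01 and 0.04 in replicates 1 and 2. Rgs1, known from lymphocytes, stood at 0.18 and -0.15.

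Adenylyl cyclases make cyclic AMP, and 3 of their 4 genes were tested. Adcy8 stood at 0.43, -0.25 and 0.58, a mean of 0.25 ± 0.44, the largest SD of all 33 members. Replicate 2 lay on the other side of 0 from the rest, and without it the mean was 0.50. Without replicate 3 it was 0.09, without replicate 1 it was 0.16, and it was 0.07 both with median centring and without background correction. Adcy9 stood at -0.05, 0.13 and 0.04 and Adcy7 at -0.05, 0.28 and -0.25, with means of 0.04 and -0.01. Adcy6, which calcium inhibits, stood at -0.24 and 0.12 in replicates 1 and 2.

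Phosphodiesterases contributed a member at an unadjusted p under 0.05 in each direction. Pde7b stood at -0.18, -0.23 and -0.51, a mean of -0.30 ± 0.18 (limma unadjusted p = 0.0197, adjusted p = 0.827). It was below 0 on 8 of 9 arrays, with 0.76 on the exception. That array did not enter the mean, since its dye-swap partner gave no ratio, and a fit on single arrays, which used it, gave -0.18. Without replicate 3 the mean was -0.20. Pde8a stood at 0.16, 0.27 and 0.30, a mean of 0.24 ± 0.07 (limma unadjusted p = 0.0205, adjusted p = 0.827), and was above 0 on 7 of 7 arrays, between 0.01 and 0.71. The array at 0.71 likewise had no partner and stayed out of the mean. Pde8a had the smallest SD of the 12 members with the lowest p. With median centring its mean turned to -0.12.

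The other phosphodiesterases had unadjusted p-values over 0.05. Pde1a, which calcium and calmodulin activate, stood at -0.05, -0.35 and -0.04, a mean of -0.14 ± 0.18 that fell mostly to replicate 2 (without it -0.04). Its relative Pde1b stood at -0.09, 0.05 and -0.30, and Pde4b, specific for cyclic AMP, at -0.16, 0.04 and -0.03. Pde9a, specific for cyclic GMP, stood at -0.04, 0.05 and 0.40, and Pde10a, which is abundant in the striatum, at 0.06, -0.35 and 0.18. Of the 7 tested genes, 5 means lay below 0. Pde3a and Pde7a, measured in replicates 1 and 2, stood at -0.07 and 0.14 and at -0.35 and 0.19. Pde1c had a value in replicate 2 alone (0.01).

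**Figure D3:**
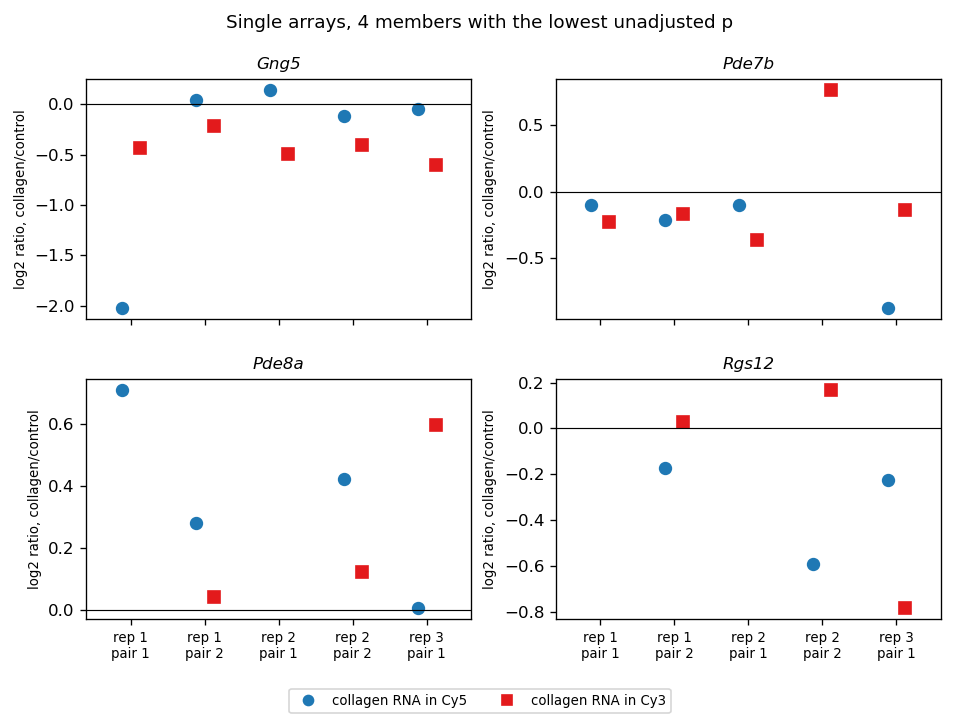
Points give the log2 ratio of collagen over control on each single array for Gng5, Pde7b, Pde8a and Rgs12, by replicate and dye-swap pair; circles are arrays with collagen RNA in Cy5 and squares those with it in Cy3, and the vertical scales differ. Gng5 reaches -2.03 on 1 array, and Pde8a is above 0 on all 7 arrays that measured it.

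The 12 members with the lowest p were followed through the other ways of processing the scanner files that turn the ratios by the dyes, as the main values do. Gng5 lay between -0.51 and -0.07, Pde7b between -0.45 and -0.18 and Rgs12 between -0.42 and -0.14, each below 0 in all of these. Pde8a lay between 0.15 and 0.36 except with median centring. Rgs17 and Gnaq also crossed 0 once each, at 0.09 with median centring and 0.02 without background correction. With channel A read as control on every array, 8 of the 12 changed sign, among them Gng5 (0.06) and Pde8a (-0.01).

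**Figure D4:**
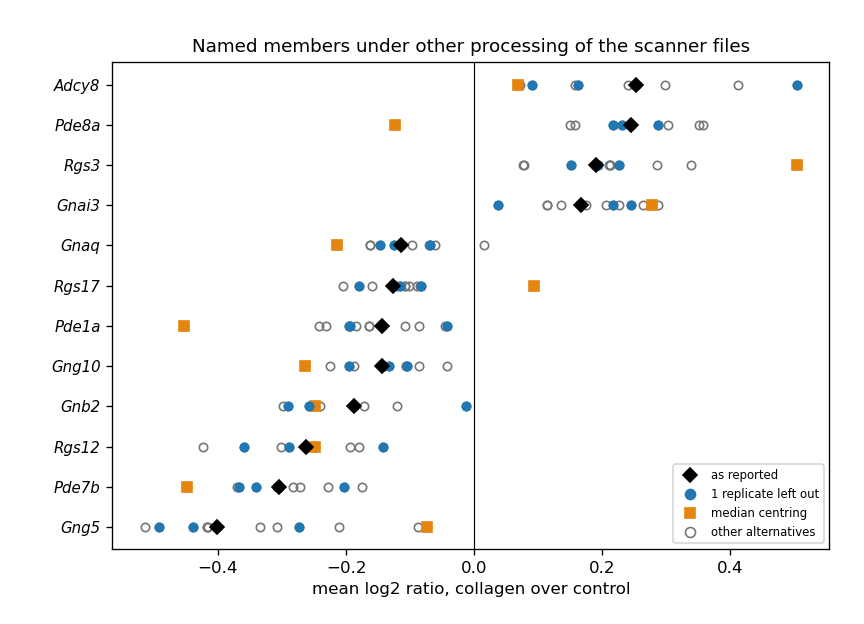
For the 12 members with the lowest p, diamonds give the mean log2 ratio of collagen over control as reported, filled circles the mean with 1 replicate left out, squares that with median centring in place of loess, and open circles that under the other alternatives with turned dyes. Squares lie on the other side of 0 from the diamonds for Pde8a and Rgs17.

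Dye-swap pairs that share a replicate number, which were read as the same RNAs hybridised again, show the precision of these values. In replicate 1 the repeat pairs differed by a median of 0.22 over the 14 members that both measured, and in replicate 2 by 0.21 over 17. The medians of the differences between replicates were 0.12 (1 and 2), 0.17 (1 and 3) and 0.28 (2 and 3) over 33 members. The differences between repeat pairs lay within the range of those between replicates. The measures are unlike, since the former compare single pairs over fewer members, and replicates 1 and 2 average their pairs where both were measured. The SD of the 3 replicates had a median of 0.18 for members and 0.14 for all probes. Among the tested members the weaker channel was a median of 1.34 times its local background, from 0.709 to 13.6 times, and was below it for 9 members. Pde1a (0.709 times, the lowest), Adcy8 (0.718), Pde7b (0.729) and Rgs12 (0.909) were among these 9.

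The arrays were also compared by channel, B over A without regard to which RNA it held. On the reading that channel letters follow the dye, this is a dye effect. Gng4 was brighter in channel B on 10 of 10 arrays (0.07 to 0.72) with a mean of 0.37, and Gng13 on 7 of 7 (0.04 to 0.98) with a mean of 0.46. Gnaq was brighter in channel A on 7 of 9 arrays, with a mean ratio of -0.26. Rgs17 and Rgs10 stood at 0.19 and 0.20. With the replicates averaged, limma called 0 of 33 members, beside 1.33% of all probes, and the smallest adjusted p was 0.095. A fit on single arrays, blocked by replicate, called 2 of 33, Gng4 (limma adjusted p = 0.0184) and Gng13 (limma adjusted p = 0.0381), beside 330 or 7.97% of all probes. The correlation estimated within a replicate was 0.0365, so that fit counted repeat arrays nearly as separate samples. At an unadjusted p under 0.05 the fit with the replicates averaged gave 3 members, Gng13, Gng4 and Gnaq, or 9.09%, beside 18.9% of all probes. After turning to collagen over control, Gng4 and Gng13 had ratios of 0.01 and 0.04.

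**Figure D5:**
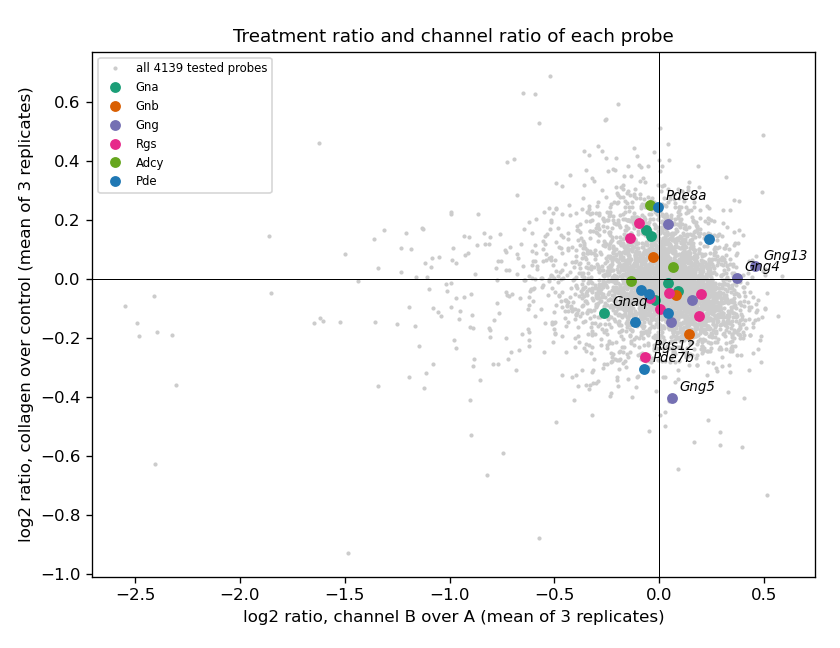
Each point is a tested probe, with the mean log2 ratio of channel B over A across and of collagen over control upward; coloured points are the 33 members by family and grey points all 4139 probes. Members lie between -0.26 and 0.46 across and between -0.40 and 0.25 upward, within the range of the grey points on both axes.

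Receptors and effectors of the same pathway gave no call either. Of 79 listed G protein-coupled receptor genes, 41 have a probe and 14 were tested, with 5 means above and 9 below 0, a median of -0.03 and 0 called. Adcyap1r1, the receptor of the peptide PACAP that acts through Gs, stood at -0.12, -0.20 and -0.28 (mean -0.20 ± 0.08, limma unadjusted p = 0.0456, adjusted p = 0.827). Cckbr, a cholecystokinin receptor, stood at -0.05, -0.05 and -0.40, and Oprl1, the nociceptin receptor, at -0.17, 0.04 and 0.76. Of 60 listed effectors and adaptors, 25 have a probe and 14 were tested, again with 5 means above and 9 below 0, a median of -0.02 and 0 called. Rasd2, a Ras-like protein that modulates G protein signals in the striatum, stood at -0.07, -0.20 and -0.30. Prkce, a protein kinase C, stood at -0.02, -0.14 and -0.37, and Akap8, an anchor of protein kinase A, at 0.01, 0.17 and 0.34. Both lists lay near the median of -0.02 over all probes.

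Markers of neighbouring regions and of other cells were set beside these values. Of the cerebellar markers, 5 of 5 tested were below 0, with a median of -0.15 and a range from -0.40 to -0.03, and 0 were called. Zic4 and Neurod1 (means -0.40 and -0.38) had an unadjusted limma p under 0.05, 2 of 5, beside 3.94% of all probes in either direction. Their limma adjusted p was 0.827. The lists were chosen with earlier results of these data known, so these counts are no independent evidence on cerebellar markers. Cbln1 (0.13, -0.12 and -0.11) and Zic1 (-0.32, 0.12 and -0.25) had replicates on either side of 0. Of the untested ones, Pcp2 stood at -0.20 and 0.45 in replicates 1 and 3, and Zic2 at -0.12 in replicate 2. Of all probes 59.2% had a mean below 0. The 7 tested microglia and blood cell markers had a median of -0.06, the 3 glial ones -0.04 and the 2 forebrain ones -0.10. Among the microglia and blood cell markers 3 means lay above 0 and 4 below, and Cd79b (mean 0.29) had an unadjusted limma p under 0.05. The 7 tested midbrain neuron markers had a median of -0.01, with 3 above 0. Th (0.03, 0.13 and 0.88) and Ddc, the enzyme that makes dopamine from its precursor (0.01, 0.27 and 0.26), were above 0 in all 3 replicates, at limma unadjusted p of 0.0976 and 0.0932. Pitx3 (-0.12, -0.10 and -0.04) was below 0 in all 3, and Nr4a2, Lmx1b and En2 also had means below 0. The part of the marker genes in the values of the G protein genes was not tested.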

How the data were processed

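Per the file headers, the authors deposited for each of 29 scans of the 10 arrays the spot intensity in channels A and B, already corrected for background, with the background intensity, a saturation factor and a flag. The saturation factor, a score from 0 to 1 in the deposited files, was not used. The authors' deposited value table gives each probe a score on every array, with medians from -0.00862 to 0.00332, so centred near 0; its scale and absolute direction stay unknown, and it served as an alternative. The quantifying software is not stated in the labels or headers. Spots were matched to probe numbers by printing block, then row and column (the deposited scores then correlated with the ratio of channel B over A at 0.67 to 0.835 in size, and at no more than 0.0901 in slide order). The sign was positive on 5 of 5 arrays with collagen RNA in Cy5 and negative on 5 of 5 with it in Cy3, so the scores turn with the dyes; they do not say which letter is Cy3.

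Spots flagged X, Y or Z, or lacking a positive intensity in a channel, were left out, and the rest were normalised within each scan by loess (limma 3.58.1, R 4.3.3, span 0.3, 4 iterations) on the log2 ratio. Ratios were averaged over scans, turned to collagen over control by the dye labels, and averaged over both arrays of a pair and then over pairs of a replicate. Probes with all 3 replicates were tested against 0 (lmFit and eBayes, two-sided, Benjamini-Hochberg over all 4139). The ratio of channel B over A was tested likewise. The script was tested on simulated data.

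Members with every replicate value were the 12 with the lowest unadjusted p, the largest mean in size per family, and 5 for the channel effect; values of the other members were added beyond that rule so that every member is accounted for. Receptors and effectors are the 3 of each list with the lowest p. The members, lists and tests were chosen with earlier results of these data known. The closing section gives the effect of both channel readings and of the other alternatives on the main counts, with selected values of the named members. The number of arrays limits the precision. Replicate numbers come from the labels. Across probes, deviations from the orientation means correlated within a pair at -0.363 to -0.0284. Given within pairs only, these values do not show which arrays share an RNA.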

Additional observations from a re-analysis of the deposited data

Results flagged for a closer look

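For the named members, 23 sets were examined, each the 4 or 5 arrays of a dye orientation that measured a member. In 5 of these sets a single array lay far from the others. About 1 in 20 would be flagged among unselected sets of independent arrays. These members were picked by their values in the same data, and some arrays repeat a replicate, so that rate is only a rough guide. Gng5 stood at -2.03 in replicate 1, first pair, collagen in Cy5, where the next lowest was -0.12. Pde7b stood at -0.87 on the replicate 3 array with collagen RNA in Cy5 (next -0.21) and at 0.76 on an array of replicate 2 with it in Cy3 (next -0.14), the latter outside its mean for want of a dye-swap partner. Adcy8 stood at -0.37 in replicate 2 with collagen in Cy5, where the next was 0.50. Rgs17 stood at -0.0601 on the replicate 3 array of the same orientation, where the next was 0.10.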

How the results depend on the processing

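The count of 0 called members held in 17 of 17 alternatives, and the count of 0 called probes in 16. The exception reads the letters as the RNA (A always control) and called 55 probes, 0 of them members. Leaving out the first pair of replicate 1 or of replicate 2 was chosen after the data were seen. The median of the members stayed between -0.08 and 0.00 in all 17.

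Counts of members with a single sign, 9 lower and 3 higher, moved most. Leaving out a replicate, where only 2 signs need to agree, gave 11 to 16 lower and 7 to 9 higher. Median centring gave 4 lower and 7 higher, print-tip loess 3 and 5, the brighter 50% of probes (16 members tested) 5 and 0, 5 pairs as samples 5 and 1, and fixed channel letters 2 and 8. Probes in at least 2 replicates gave 5 higher, and the authors' values 4 lower. Without the first pair of replicate 1 there were 6 lower. The replicate block gave 2 channel calls among members in place of 0, and 330 among all probes in place of 55; its treatment calls were 0 as in the fit of replicate means. Beyond the different numbers of samples and probes, why these counts moved was not tested.

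Of 190 values of the 12 named members, 158 moved by under 1 SD, and 11 changed sign, 8 of them with fixed channel letters. The other 3 were Pde8a and Rgs17 with median centring (-0.12 and 0.09) and Gnaq without background correction (0.02). Gng5 ranged from -0.51 with normexp to -0.07 with median centring over the 15 alternatives from the scanner files with turned dyes. Of the 4 members at an unadjusted p under 0.05, all 4 remained there without the first pair of replicate 1, 2 without replicate 1 (Pde7b and Rgs12), 1 without replicate 2 and 1 without replicate 3 (Gng5 both times), 1 with print-tip loess (Pde8a) and 0 with median centring. With the authors' values 0 of them remained, and Pde7b was not tested. There Gng5 stood at -0.04, Pde8a at 0.02 and Rgs12 at -0.04, on a scale that is unknown.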
